A study of Mus musculus with 23 samples.

Results

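The genes described here are 48 genes of proliferation and the cell cycle, chosen by symbol. All 48 were found among the 35825 genes of the table, and all 48 passed the filter on low values, which kept a gene that reached 10 normalized counts in 3 or more libraries. They were measured by RNA-seq in 23 libraries of GFP+ microglia sorted from mouse retina. WT microglia came from CX3CR1-GFP mice, in which GFP is knocked into the Cx3cr1 locus, and Spp1 KO microglia from Spp1KO/CX3CR1-GFP mice, which by their label also carry a knockout of Spp1, so that all groups share the GFP allele. Retinas were naïve, or were taken 4 weeks after microbeads raised the intraocular pressure (IOP), or 7 days after optic nerve crush (ONC). Each group had 4 libraries except WT ONC, which had 3. Retinas of several mice were pooled before each sort, the age of the mice is not given in the labels used here, and all tests measure the spread between these pooled libraries.

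A dividing cell copies its DNA in S phase and separates the copies in mitosis. Before S phase the MCM helicase is loaded at origins with the help of Cdc6 and Cdt1, and E2F factors switch on the genes that make nucleotides and the replication fork. In G2 and mitosis, cyclins A and B drive the kinase Cdk1, FOXM1 and the DREAM-associated MuvB complex raise a second set of genes, and Plk1, the Aurora kinases, the spindle checkpoint and the anaphase-promoting complex carry the cell through division. Adult microglia divide slowly, and injury to the retina or its nerve is known to make them divide. In bulk RNA a rise in such genes can come from more dividing cells or from more transcript per cell, and these cannot be told apart here.

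The genes fall into 8 roles. The first roles hold 15 S phase genes, 10 for origin licensing and firing and 5 for nucleotide supply and the replication fork. There are 8 cyclins, CDK and CDK phosphatase genes, 3 transcription factors and 22 genes of mitosis, from chromosome condensation to cytokinesis. Values are normalized counts, the reads on a gene over the size factor that DESeq2 gives each library. A change was called when the limma adjusted p was under 0.05 and the absolute log2 fold change, on log2(normalized count + 1), was over 0.58.

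As many of these genes rose together, their RefSeq promoters were compared on the mouse build GRCm38.p6, from 250 bases before to 50 bases after the start of the gene. A promoter was found for 37 of the 48 genes. The cell cycle genes homology region (CHR, TTTGAA on either strand) is the element at which MuvB binds, the CCAAT box (CCAAT on either strand) is bound by NF-Y, and E2F sites were searched as TTTGGCGC, TTTCGCGC, TTTCCCGC or TTTGCCGC on either strand. The CHR letters stood in 14 of 18 mitosis promoters (77.8%), in 2 of 13 S phase promoters (15.4%) and in 20.2% of all 27025 genes with a promoter. E2F letters stood in 6 of 13 S phase promoters (46.2%), in 0 of 18 mitosis promoters and in 2.6% of all genes. CCAAT letters stood in 15 of 18 mitosis promoters (83.3%), in 9 of 13 S phase promoters (69.2%) and in 41.1% of all genes. With the 50 bases after the start left out, the CHR letters stood in 7 of 18 mitosis promoters (38.9%) against 18.3% of all genes, and the E2F letters in 4 of 13 S phase promoters (30.8%) against 2.16%. A match describes these letters and does not show binding.

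The promoters below were chosen because Ccnb2, Cdc20 and Cdk1 rose after ONC in both genotypes, while Mcm5 and Mcm6 carry E2F letters and passed in KO but not in WT. Each line gives the 200 bases before the start, 5′ to 3′ on the strand of the gene, with the CHR, CCAAT and E2F letters in capitals. Ccnb2 lies at chr9:70421555-70421754 on the minus strand, Cdc20 at chr4:118437344-118437543 on the minus strand and Cdk1 at chr10:69352913-69353112 on the minus strand. Mcm5 lies at chr8:75109309-75109508 on the plus strand and Mcm6 at chr1:128359706-128359905 on the minus strand.
Ccnb2: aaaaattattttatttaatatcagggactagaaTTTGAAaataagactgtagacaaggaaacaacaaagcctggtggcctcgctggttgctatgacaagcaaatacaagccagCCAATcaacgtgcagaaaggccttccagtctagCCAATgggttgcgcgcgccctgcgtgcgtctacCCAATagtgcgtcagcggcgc
Cdc20: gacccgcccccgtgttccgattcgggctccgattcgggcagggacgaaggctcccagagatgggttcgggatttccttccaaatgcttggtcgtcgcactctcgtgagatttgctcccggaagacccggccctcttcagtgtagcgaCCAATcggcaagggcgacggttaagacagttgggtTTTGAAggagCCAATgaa
Cdk1: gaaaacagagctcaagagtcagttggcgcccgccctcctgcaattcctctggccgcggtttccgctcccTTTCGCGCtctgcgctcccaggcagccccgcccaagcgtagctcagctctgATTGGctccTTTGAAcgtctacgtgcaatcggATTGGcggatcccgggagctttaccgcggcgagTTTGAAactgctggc
Mcm5: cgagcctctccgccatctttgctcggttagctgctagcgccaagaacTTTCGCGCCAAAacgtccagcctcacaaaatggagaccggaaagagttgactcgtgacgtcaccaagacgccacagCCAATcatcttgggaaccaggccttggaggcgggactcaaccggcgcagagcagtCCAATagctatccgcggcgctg
Mcm6: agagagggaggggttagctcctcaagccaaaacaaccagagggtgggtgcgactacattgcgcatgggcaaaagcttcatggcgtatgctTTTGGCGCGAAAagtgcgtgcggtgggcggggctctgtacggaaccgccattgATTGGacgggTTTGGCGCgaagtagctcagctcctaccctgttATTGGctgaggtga
In this window Ccnb2 and Cdc20 hold CHR and CCAAT letters, Cdk1 holds all 3 kinds, and the MCM promoters hold E2F and CCAAT letters.

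The libraries held 22180480 to 30296094 reads on genes, so that 3 reads stood for 2.41 to 4.03 normalized counts. Spp1 itself was at 14557 to 22906 in WT ONC. In the libraries labelled KO ONC it was at 4750, 6811, 15.001 and 6226, below every WT ONC library but, in replicates 1, 2 and 4, above every WT naïve library (334 to 1518) and every WT IOP library (1343 to 2772). The libraries labelled KO IOP held 25.5, 811, 9.28 and 761, below every WT IOP library, and those labelled KO naïve held 350.2, 53.1, 6.78 and 81.6, of which replicate 1 lay within the WT naïve range. KO is used below as the labels give it, and Spp1 reads were not absent from these libraries. The table does not show on which exons of Spp1 these reads lie. Of the 48 genes, 15 overlap a gene on the opposite strand, among them Ccna2, Cdc20 and Ube2c, and whether reads were counted by strand is not stated in the sources used here. Some libraries stood apart in their content of other retinal cells. KO naïve replicates 1, 2 and 4 had summed counts of 277822, 308337 and 346142 over the microglia marker list, against 921932 in replicate 3. Their sums over the pigment epithelium list were 38816, 13124 and 13497, against 906, and their rod photoreceptor sums were higher as well. In the WT ONC group, replicate 2 had the lowest microglia sum (645467 against 1316680.0 and 1148480.0) and the highest rod sum (424922 against 168996 and 174714). WT IOP replicates 1 and 4 had microglia sums of 443207 and 499382, against 770756 and 802337 in replicates 2 and 3. Their rod sums were 523383 and 573892, against 369194 and 398365. KO ONC replicate 4 had a pigment epithelium sum of 12217, against 151 to 419 in replicates 1 to 3. For several results that rest on libraries that stood apart, values without them are also given.

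**Figure D1:**
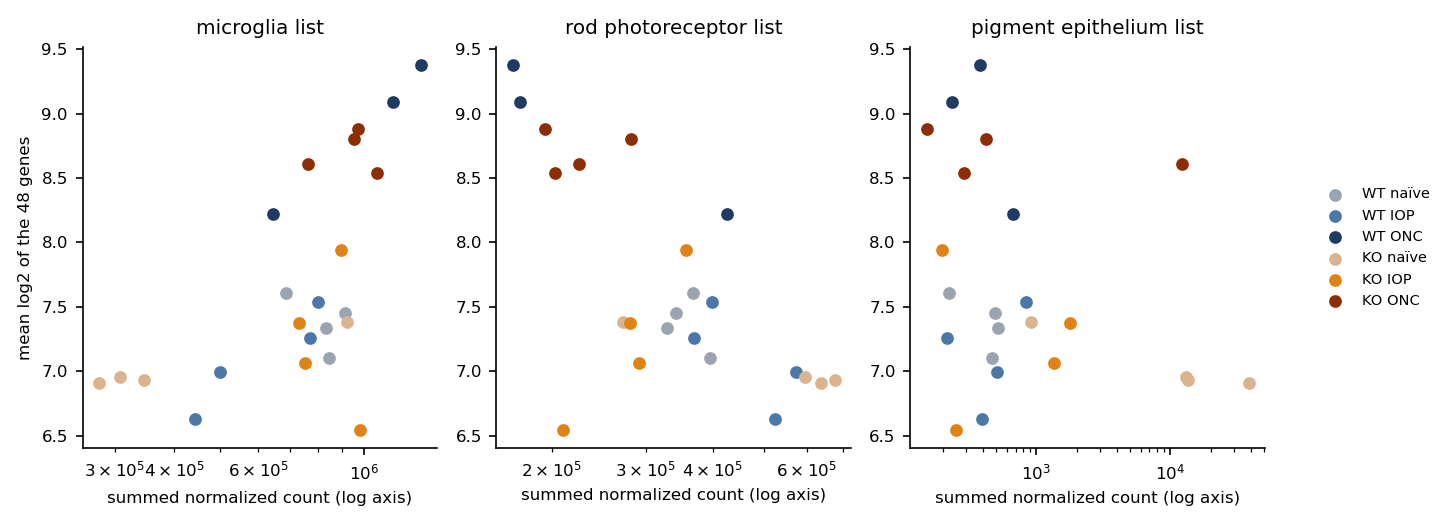
Mean log2(normalized count + 1) over the 48 genes (vertical axis) against the summed normalized count of the microglia, rod photoreceptor and pigment epithelium marker lists (horizontal log axes), 1 point per library, coloured by group. The 7 ONC libraries sit between 8.22 and 9.38 and all others at 7.94 or below, and KO naïve replicates 1, 2 and 4 have the lowest microglia sums and the highest pigment epithelium sums.

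The first question was how these genes respond to crush of the optic nerve in WT microglia. After ONC, 18 of the 48 genes were upregulated against naïve and 0 were downregulated, while 7.55% of the 17102 genes tested were upregulated in this comparison. The median log2 fold change was 1.54 over the 48 genes and -0.10 over all genes tested. Of the 22 mitosis genes 12 rose, with a median of 1.96, and of the 15 S phase genes 3 rose, with a median of 0.65. The groups did not overlap for 24 of the 48 genes, all higher after ONC, against 12.1% of all genes tested. By library, the mean log2 value of the 48 genes was 7.45, 7.61, 7.10 and 7.34 in WT naïve and 9.38, 8.22 and 9.09 in WT ONC.

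**Figure D2:**
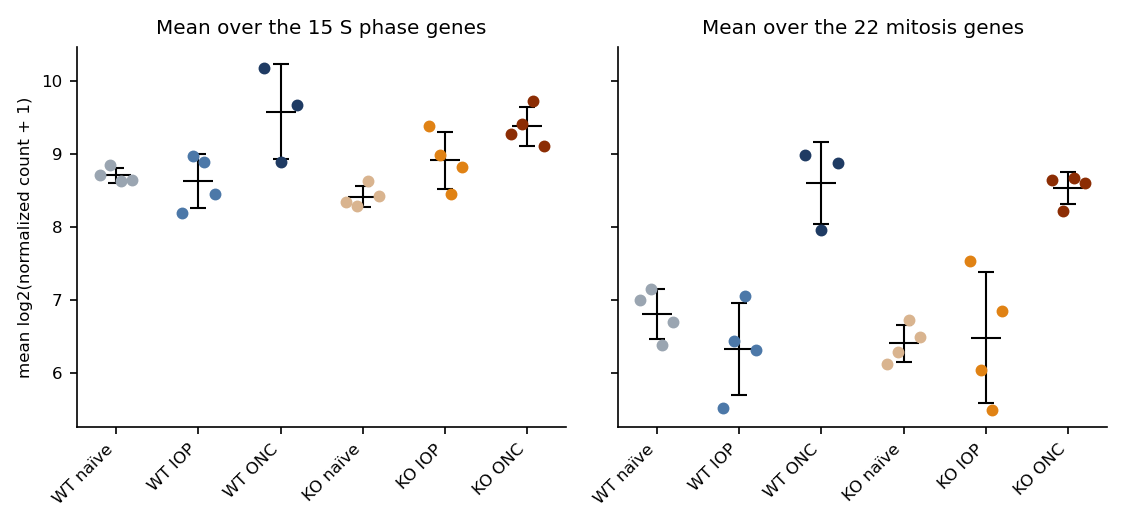
Mean log2(normalized count + 1) over the 15 S phase genes (left) and the 22 mitosis genes (right) in every library, with the group mean and SD in black (n = 4 libraries, 3 for WT ONC). For the mitosis genes the 7 ONC libraries lie between 7.97 and 8.99 and all others at 7.54 or below, whereas for the S phase genes WT ONC replicate 2 and KO ONC replicates 1 and 4 lie below the highest IOP library, at 9.39.

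Among the cyclins, Ccna2, which activates CDKs in S phase and G2, was at 35.5, 80.1, 65.9 and 156 in the WT naïve libraries and at 1593, 557 and 1136 in WT ONC. Every ONC library lay above every naïve library (log2 fold change 3.75 ± 0.55 (SE), limma adjusted p = 8.36e-05). Ccnb2, a B-type cyclin that partners Cdk1 in mitosis, was at 103, 104, 48.1 and 128 in naïve and at 2282, 381 and 1013 in ONC libraries (log2 fold change 3.40 ± 0.63 (SE), limma adjusted p = 0.000788). Its lowest ONC value, in replicate 2, was still above all naïve values. Cdk1, the mitotic kinase itself, went from 193, 203, 273 and 265 to 1649, 505 and 764 (log2 fold change 1.89 ± 0.37 (SE), limma adjusted p = 0.00114). Ccnb1, the other B-type cyclin, was at 112, 145, 41.4 and 105 and then 2296, 395 and 1316, without overlap, but its spread was wide and it did not pass (adjusted p = 0.0644 by limma).

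None of the 3 G1 cyclins passed. Ccnd1, cyclin D1, which starts the passage through G1, was at 2400.3, 2369.6, 1539.6 and 1687 in WT naïve and 2563, 1014 and 2510.3 in WT ONC. The groups overlapped, and the 95% interval of its log2 fold change was -0.70 to 0.56. Ccne1 and Ccne2, the E-type cyclins of the step into S phase, changed by 0.96 ± 1.43 (SE) and 0.70 ± 0.41 (SE) on the log2 scale and did not pass. Cdc25c, a phosphatase that activates Cdk1, had an interval of -0.44 to 4.13.

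Of the kinases, checkpoint and anaphase genes, 7 of 9 rose. Cdc20, an activator of the anaphase-promoting complex, was at 91.4, 165, 44.8 and 109.6 in WT naïve libraries and at 1616, 353 and 795 after ONC (log2 fold change 3.04 ± 0.53 (SE), limma adjusted p = 0.000435). Ube2c, the ubiquitin-conjugating enzyme of that complex, was at 44.4, 67, 32.1 and 76.2 and then 1135, 249 and 725 (log2 fold change 3.48 ± 0.57 (SE), limma adjusted p = 0.000226). Neither gene had a naïve library as high as an ONC library. Bub1b, which encodes the checkpoint protein BubR1, was at 279.6, 295, 334 and 168 and then 1366, 673 and 1176 (log2 fold change 1.97 ± 0.30 (SE), limma adjusted p = 9.74e-05). Plk1, Aurka, Aurkb and Birc5, the polo kinase, both Aurora kinases and survivin of the chromosomal passenger complex, rose by 2.02, 2.02, 2.10 and 2.66 on the log2 scale. Bub1 and Ttk, both checkpoint kinases, did not pass, at 1.95 ± 1.43 (SE) and 0.17 ± 1.36 (SE). Ttk stood at 0 to 82.5 over all libraries, and was at 0 in 5 of them.

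The general marks of proliferation also rose. Mki67, the Ki-67 antigen of cycling cells, was at 92.3, 153, 84.5 and 191 in WT naïve and 469.7, 318 and 469 in WT ONC (log2 fold change 1.74 ± 0.60 (SE), limma adjusted p = 0.0489). Top2a, the topoisomerase that untangles chromosomes, was at 206, 411, 248 and 201 and then 693, 699.7 and 1392 (log2 fold change 1.78 ± 0.45 (SE), limma adjusted p = 0.00856). Of the 9 spindle and kinetochore genes, Nusap1, Cenpe and Prc1 rose, by 2.30, 1.69 and 1.54 on the log2 scale. Stmn1, a microtubule-destabilizing protein with the highest level per kilobase of exon among the 48 genes, was at 5056, 6354, 5348 and 6165 in naïve and 8808, 3229 and 4473 in ONC libraries, with an interval of -0.67 to 0.31. The cytokinesis genes Ect2 and Anln had values of 1.28 ± 0.81 (SE) and 0.89 ± 1.25 (SE) and did not pass.

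Of the S phase genes, those that supply nucleotides rose, namely Rrm2, Tyms and Tk1. Rrm2, the regulated subunit of ribonucleotide reductase, was at 119, 91.5, 81.9 and 75.2 in WT naïve and 1454, 236 and 428 in WT ONC (log2 fold change 2.53 ± 0.80 (SE), limma adjusted p = 0.0309). Its partner subunit Rrm1 was at 1826, 2090.1, 1864 and 1593 and then 2212, 1791 and 2528, with overlap and an interval of -0.17 to 0.64. Tyms, thymidylate synthase, and Tk1, thymidine kinase, changed by 1.61 ± 0.33 (SE) and 1.54 ± 0.40 (SE). None of the 10 licensing and firing genes passed by limma, 2 had an unadjusted p under 0.05, and edgeR and DESeq2 called 1 and 2 of them. Of all 17102 genes, 5795 had an unadjusted limma p under 0.05, and edgeR and DESeq2 called 2641 and 3676. The log2 fold changes of the 10 genes ran from 0.17 for Mcm7 to 1.19 for Gins2. Mcm3, a helicase subunit, was at 1669.8, 2059.9, 1573 and 1485 in naïve and 3362, 2097 and 2675 in ONC libraries, so that even its lowest ONC value lay above the naïve values, by a small margin.

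The WT ONC libraries differed among themselves. Replicate 2, the library with more rod and less microglial transcript, held the lowest of the 3 values for 41 of the 48 genes, and replicate 1 the highest for 34. Without replicate 1 the count of upregulated genes was 10, without replicate 2 it was 25 and without replicate 3 it was 12. Of all 17102 genes tested, 528, 2225 and 773 rose in these fits. Aurka, Bub1b, Ccna2, Ccnb2, Cdc20, Cdk1, Tyms and Ube2c passed in all 7 fits that left out 1 library of either group. Mki67, Prc1 and Rrm2 passed in 2 of the 7 and Aurkb in 4, with limma adjusted p of up to 0.16, 0.18, 0.221 and 0.0799. With the rod list as a covariate 14 genes passed, and with the microglia list 16. Of all genes tested, 890 and 1343 rose with these covariates. Border macrophage markers also differed, at summed counts of 3170 to 13513 in WT ONC against 27835 to 53521 in WT naïve. Retinal ganglion cell marker sums were lower without overlap after ONC in both genotypes, from 8793 to 13456 in WT naïve to 558 to 2520 in WT ONC and from 11906 to 14190 in KO naïve to 1673 to 3035 in KO ONC. The part that either list plays was not tested. Per 1000 counts of the microglia list, the 15 S phase genes summed to 11.4 to 18.2 in WT naïve and 15.4 to 18.9 in WT ONC, and the 22 mitosis genes to 8.29 to 13.7 and 13.4 to 16.7. On that scale 45 of the 48 genes had the higher median in WT ONC, and for 23 of them the ONC libraries lay above all naïve libraries. The share of all genes on that scale was not taken, so these counts have no background beside them.

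**Figure D3:**
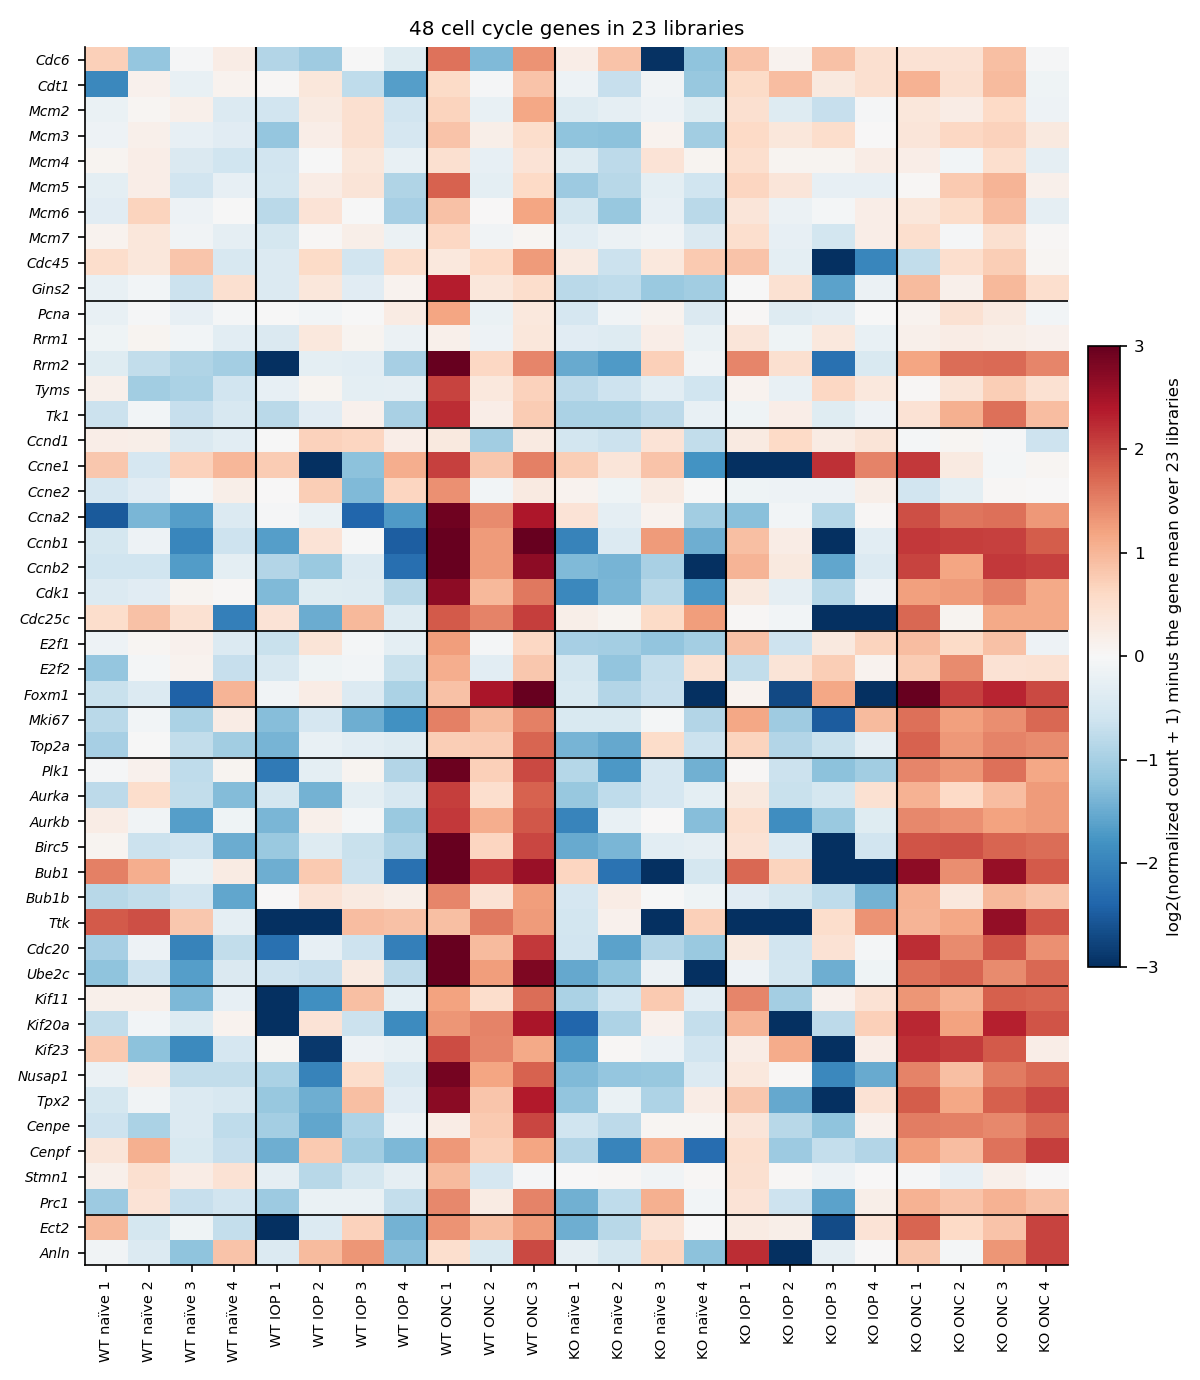
Each row is 1 of the 48 genes, grouped by role between horizontal lines, and each column 1 of the 23 libraries, grouped by vertical lines. Colour gives log2(normalized count + 1) minus the mean of that gene over all libraries, with values beyond 3 in either direction drawn in the end colours, and the ONC columns are red for most mitosis genes while the rows of Ccnd1 and Stmn1 hold no such block.

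In Spp1 KO microglia the same comparison, KO ONC against KO naïve, called 27 of the 48 genes, all upregulated, against 12.7% of all genes tested. The median log2 fold change was 1.69 over the 48 genes and -0.12 over all genes. Of the mitosis genes 14 of 22 rose, with a median of 2.21, and of the S phase genes 7 of 15, with a median of 1.07. Of the 18 genes upregulated in WT, 17 were also upregulated in KO (94.4% of the WT genes and 63% of the KO genes). These comparisons share no libraries. How many of all genes rose in both genotypes was not counted, so this overlap has no background beside it. The KO groups did not overlap for 32 of the 48 genes, all higher after ONC, against 13.4% of all genes tested.

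Ccnb2 was at 62, 59.5, 79.4 and 18.7 in KO naïve libraries and at 646, 360.0, 683 and 657 in KO ONC (log2 fold change 3.52 ± 0.59 (SE), limma adjusted p = 0.000232). Cdk1 was at 66.1, 98.9, 144 and 75.6 and then 606, 624, 716 and 569 (log2 fold change 2.75 ± 0.34 (SE), limma adjusted p = 1.33e-05). For both genes the KO ONC libraries spanned a narrower range than the WT ONC libraries, and no KO naïve library reached them. Cdc20 was at 122, 59.5, 97.8 and 83.3 in naïve and 855, 487, 675 and 471 in ONC libraries (log2 fold change 2.77 ± 0.49 (SE), limma adjusted p = 0.000442). Top2a was at 157, 142, 608 and 266 and then 1419.8, 1026, 1159 and 1105 (log2 fold change 2.25 ± 0.41 (SE), limma adjusted p = 0.000549). For Top2a the highest naïve value was that of replicate 3, the KO naïve library richest in microglial transcript.

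The genes that passed in KO and not in WT were Mcm3, Mcm5, Mcm6, Gins2, E2f1, E2f2, Foxm1, Bub1, Cenpf and Kif20a. Foxm1, the transcription factor of the G2 genes, was at 22.9, 16.9, 19.4 and 0 in KO naïve and 278, 136, 159 and 128 in KO ONC (log2 fold change 4.12 ± 1.01 (SE), limma adjusted p = 0.0051). E2f1, a factor of the S phase genes, was at 60.4, 59.5, 53.3 and 59.5 and then 232, 182, 224 and 110.2 (log2 fold change 1.61 ± 0.37 (SE), limma adjusted p = 0.00327). Mcm3 was at 809, 794, 1997 and 907 in naïve and 2394, 2858, 3039 and 2280.1 in ONC libraries (log2 fold change 1.34 ± 0.30 (SE), limma adjusted p = 0.00286), where naïve replicate 3 was close to the ONC values. Passing in KO and not in WT does not show a difference between the genotypes, and the interaction given further on tests it. Ccnd1 and Stmn1 again had intervals that hold 0, -0.38 to 0.79 and -0.48 to 0.43.

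These KO calls rest on the KO naïve libraries that stood apart. With KO naïve replicates 1, 2 and 4 left out together, 0 of the 48 genes passed by limma against the remaining single library, and the median log2 fold change was 0.91. Against that library, 41 of the 48 genes were higher in the KO ONC mean and 34 were higher in all 4 KO ONC libraries, among them 18 of the 22 mitosis genes, whose median difference was 1.52. The share of all genes was not taken for these counts, so they have no background beside them. The Y chromosome list also differed, at a summed count of 184 in KO naïve replicate 3 and 2919 to 5001 in KO ONC, and its part was not tested. With the rod list as a covariate 1 gene passed, Cdk1 (2.09, adjusted p = 0.00473 by limma), and the median was 1.18. Of all 17102 genes, 350 rose in this fit and 2165 without the covariate. With the microglia list as a covariate 1 gene passed, also Cdk1 (1.83, adjusted p = 0.0136), and the median was 0.92. In that fit 263 of all 17102 genes rose. Leaving out 1 library at a time gave 20 to 28 genes, the highest count without KO ONC replicate 4. Of all genes tested, 1588 to 2579 rose in these fits.

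The scale also mattered in KO. Per 1000 counts of the microglia list, the summed S phase genes were at 27.6, 24.8, 12.5 and 23.9 in KO naïve and at 14.9, 14.5, 18.5 and 16.3 in KO ONC, so that naïve replicates 1, 2 and 4 lay above every ONC library. The summed mitosis genes were at 22.4, 21.5, 8.44 and 19.8 in KO naïve and 14.6, 10.1, 14.4 and 17.4 in KO ONC, in the same order. Stmn1 makes up 29.1% to 74.5% of that sum, and without it, a choice made after seeing the values, the other 21 mitosis genes were at 5.75, 6.30, 3.82 and 6.29 in KO naïve and 9.89, 6.50, 9.10 and 11.4 in KO ONC. Gene by gene, the median was higher in KO ONC for 20 of the 22 mitosis genes but for 4 of the 15 S phase genes, and for 30 of all 48. The ONC libraries lay above all naïve libraries for 10 of the 48 genes on this scale, 6 of them mitosis genes, and below them for 1. Here too the share of all genes was not taken. On this scale the summed S phase genes were lower in KO ONC than in KO naïve replicates 1, 2 and 4. They were higher in every KO ONC library than in naïve replicate 3, at 12.5. The part that the other retinal cells of these libraries play was not tested.

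**Figure D4:**
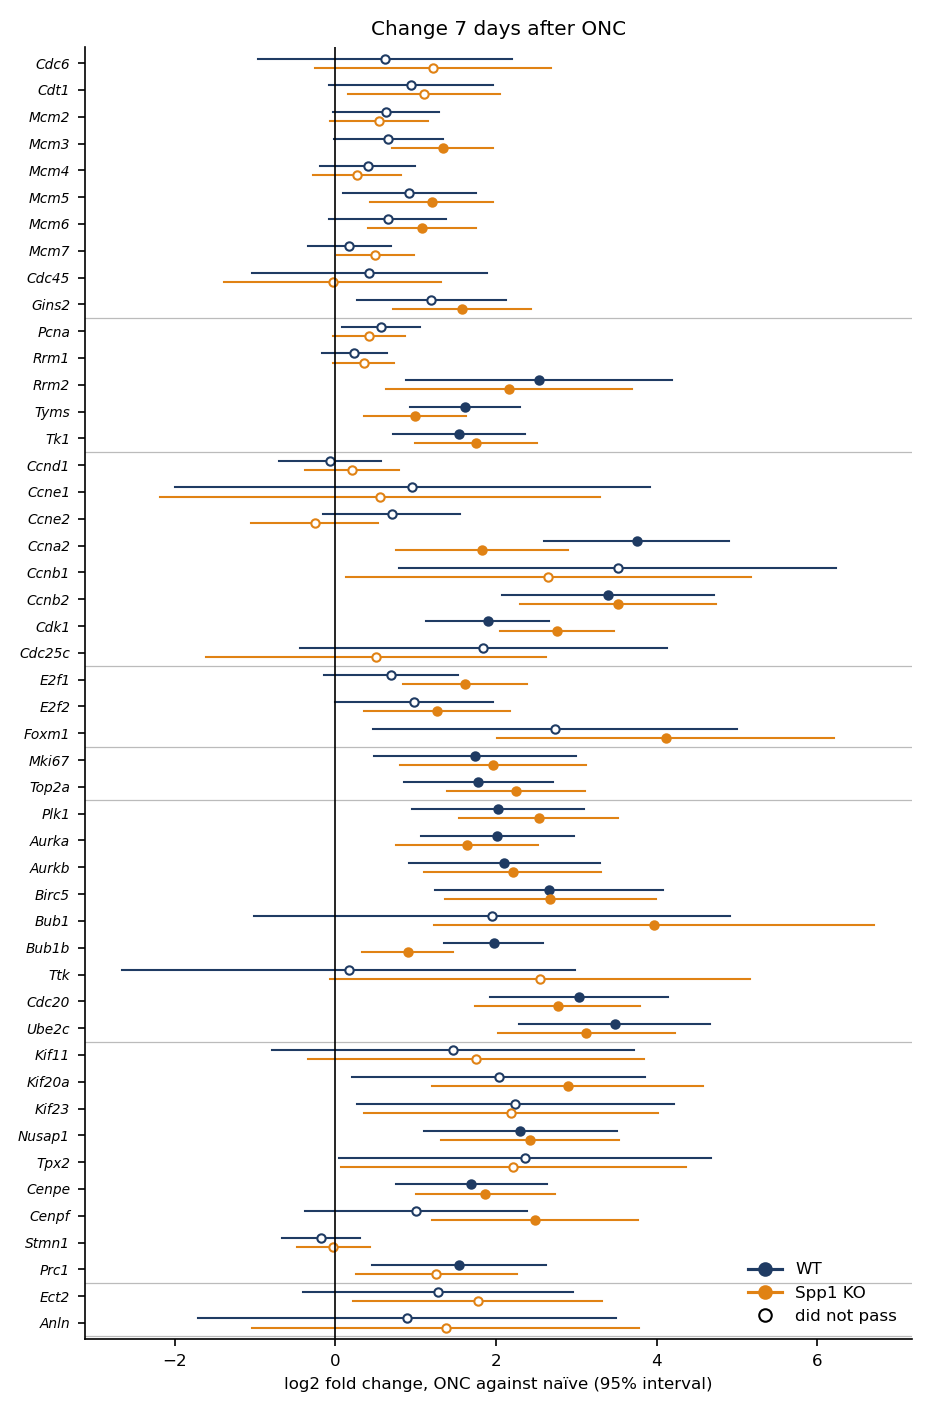
Log2 fold change of each of the 48 genes 7 days after ONC against naïve with its 95% interval (horizontal axis), in WT (blue) and Spp1 KO (orange), with roles separated by grey lines. Filled points passed the test and open points did not, and most points of both genotypes lie right of 0 while those of Ccnd1 and Stmn1 lie near it.

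Raised IOP was followed by far smaller values. Between WT IOP and WT naïve, 1 of the 48 genes passed, Bub1b, while 0.842% of all genes were upregulated. The median log2 fold change over the 48 genes was -0.11, and 32 of them lay below 0. By WT IOP library, the mean log2 value of the 48 genes was 6.63, 7.26, 7.54 and 7.00. It was lowest in replicates 1 and 4, the WT IOP libraries with the lowest microglia sums, and their part was not tested. Bub1b was at 500.1, 662, 596 and 563 in WT IOP, above every WT naïve library (log2 fold change 1.14 ± 0.27 (SE), limma adjusted p = 0.0359). Leaving out any 1 of the 8 libraries took this call away, with an adjusted p of up to 0.162. Stmn1 was at 3818, 2563, 3183 and 3830.5, below every WT naïve library, and did not pass (log2 fold change -0.79 ± 0.22 (SE), limma adjusted p = 0.0752). Mki67 was at 66.9, 114, 58.5 and 45.2 in these libraries, within or below the naïve range. The WT IOP libraries carried lens transcripts, at summed counts of 28181 to 204817 against 105 to 2013 in WT naïve, and the part this plays was not tested.

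Between KO IOP and KO naïve, 3 of the 48 genes passed, Mcm3, E2f1 and Cdk1, all upregulated. This is near the share of all genes that rose, 5.06%, so the 48 genes did not stand out here. E2f1 was at 224, 78.4, 149.5 and 195 in KO IOP and lay above all KO naïve libraries (log2 fold change 1.36 ± 0.37 (SE), limma adjusted p = 0.0327). Mcm3 was at 2829, 2352, 2679 and 1885 (log2 fold change 1.21 ± 0.30 (SE), limma adjusted p = 0.0239) and Cdk1 at 316, 211, 141 and 231 (log2 fold change 1.22 ± 0.34 (SE), limma adjusted p = 0.0347). Both overlapped KO naïve, through its replicate 3. No gene passed with the rod or microglia covariate, with KO naïve replicates 1, 2 and 4 left out, with the compared groups fitted alone, or by edgeR with KO IOP replicates 2 and 4 left out. Of all 17102 genes, 2 rose with the rod covariate, 96 with the microglia covariate and 3 with the compared groups alone. By edgeR without KO IOP replicates 2 and 4, 10 of all genes rose. The sums of the Y chromosome list were 101 to 169 in KO IOP and 3593, 4927, 184 and 4873 in KO naïve, and the part of this difference was not tested. The KO IOP libraries were spread widely, with Mki67 at 362, 77.4, 27.8 and 315 and Birc5 at 181, 100.5, 11.3 and 89.9.

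Set directly against each other, ONC libraries were higher than IOP libraries. In WT, 22 of the 48 genes passed, all higher in ONC, against 9.7% of all genes, with a median log2 fold change of 1.88. Cdc20 was at 37.6, 152, 119 and 43.4 in WT IOP, below every WT ONC library (log2 fold change 3.36 ± 0.53 (SE), limma adjusted p = 0.000402). Kif20a, a motor of the central spindle, was at 10.1, 129, 62.2 and 25.7 in WT IOP and 244, 277 and 537 in WT ONC (log2 fold change 3.07 ± 0.88 (SE), limma adjusted p = 0.0184). The count was 6 with the rod covariate, 5 higher and 1 lower, 11 with the microglia covariate, 10 higher and 1 lower, and 6, all higher, with the compared groups fitted alone, and it was 11 without WT ONC replicate 1 and 14 without replicate 3. Ccnd1 was the gene called lower in ONC, at -1.30 with the rod covariate (adjusted p = 0.00291 by limma), -1.10 with the microglia covariate (adjusted p = 0.00422) and, with 23 genes higher, -0.83 under quantile scaling (adjusted p = 0.0448), against -0.54 without these changes (adjusted p = 0.198). Over all 17102 genes in WT, 193 were higher with the rod covariate, 646 with the microglia covariate and 320 with the compared groups alone. Without WT ONC replicates 1 and 3, 561 and 762 of all genes were higher. In KO, 10 of the 48 genes passed, all higher in ONC, against 1.36% of all genes, with a median of 1.62. Of these 10, 8 were mitosis genes and the others were Cdk1 and Ccna2. Birc5 was at 502, 512, 452 and 434 in KO ONC, above all KO IOP libraries (log2 fold change 2.82 ± 0.63 (SE), limma adjusted p = 0.019), and Cenpe, a kinetochore motor, went from 149.7, 64.3, 49.5 and 127 to 336, 334, 316 and 377 (log2 fold change 1.93 ± 0.42 (SE), limma adjusted p = 0.0153). The KO count fell to 3 without KO IOP replicate 3, to 3, 1 and 2 without KO ONC replicates 1, 2 and 3, and to 0 by edgeR with KO IOP replicates 2 and 4 left out. In that last fit 38 of the 48 genes still lay above 0, with a median of 1.26. Of all 17102 genes, 23 were higher in that fit and 161 without KO IOP replicate 3. Without KO ONC replicates 1, 2 and 3 they numbered 139, 79 and 98. The Y chromosome list did not overlap between these groups, at summed counts of 101 to 169 in KO IOP and 2919 to 5001 in KO ONC, and its part was not tested.

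The study also compared the genotypes within each condition, where the libraries labelled KO hold the Spp1 reads given above. Between KO ONC and WT ONC, 0 of the 48 genes passed by limma, against 0.0877% of all genes. By edgeR and DESeq2 0 passed as well, beside 2 and 100 of all 17102 genes. An unadjusted limma p under 0.05 was found for 1601 of all genes and for 0 of the 48. The median log2 fold change was -0.20, and the 95% interval held 0 for all 48 genes, and reached 0.40 to 2.96 to either side of the estimate, so that sizeable differences in either direction could not be seen with these libraries. Tyms had the lowest p, at 646, 826, 1044 and 858 in KO ONC (log2 fold change -0.60 ± 0.33 (SE), limma adjusted p = 0.602). The Y chromosome list summed to 4633, 159 and 108 in WT ONC and to 2919 to 5001 in KO ONC, and its part was not tested. The interaction of genotype and ONC called 0 of the 48 genes by limma, against 0.0702% of all genes. By edgeR and DESeq2 0 passed as well, beside 3 and 226 of all genes. An unadjusted limma p under 0.05 was found for 2125 of all genes and for 2 of the 48. Bub1b had the lowest p there (log2 fold change -1.07 ± 0.40 (SE), limma adjusted p = 0.273), with an interval of -1.91 to -0.23, and the other was Ccna2 (log2 fold change -1.92 ± 0.76 (SE), limma adjusted p = 0.297).

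In naïve retina, KO against WT called 0 of the 48 genes by limma, against 0.409% of all genes. By edgeR and DESeq2, 0 and 1 of the 48 passed, beside 26 and 536 of all 17102 genes. An unadjusted limma p under 0.05 was found for 2670 of all genes and for 6 of the 48. Cdk1 had the lowest p and lay lower in every KO library than in every WT library (log2 fold change -1.32 ± 0.34 (SE), limma adjusted p = 0.069). Without KO naïve replicate 3, so with the libraries rich in pigment epithelium transcript alone, 3 of the 48 genes passed, all lower in KO. In that fit 1244 of all 17102 genes were called lower, so the 48 genes did not stand out from all genes. After IOP elevation, KO against WT called 0 of the 48 genes by limma, against 2.11% of all genes. By edgeR and DESeq2, 0 and 1 of the 48 passed, beside 250 and 940 of all genes. An unadjusted limma p under 0.05 was found for 3602 of all genes and for 6 of the 48. Bub1b had the lowest p and did not overlap between the genotypes (log2 fold change -0.99 ± 0.27 (SE), limma adjusted p = 0.0634).

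The interaction of genotype and IOP called 2 genes in opposite directions, against 8.75% of all genes. Bub1b was higher after IOP elevation than naïve in WT, while in KO it was at 346, 574, 488 and 454 in naïve and 392, 342, 292 and 184 in IOP libraries. The difference between these effects was -1.80 ± 0.39 (SE) on the log2 scale, with an adjusted p of 0.0108 by limma. It passed in all 16 fits that left out 1 library, but not with KO naïve replicates 1, 2 and 4 left out together (-1.89, adjusted p = 0.224). Cdk1 showed the opposite order (log2 fold change 1.80 ± 0.48 (SE), limma adjusted p = 0.0261). This call was lost with the rod covariate (1.03, adjusted p = 0.471), with the microglia covariate (0.96, adjusted p = 0.387), by edgeR with KO IOP replicates 2 and 4 left out, and in 8 of the 16 fits without 1 library. Transcripts of the Y chromosome list also separated these groups, at summed counts of 101 to 169 in KO IOP against 1269 to 4918 in WT IOP, and their part was not tested.

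**Figure D5:**
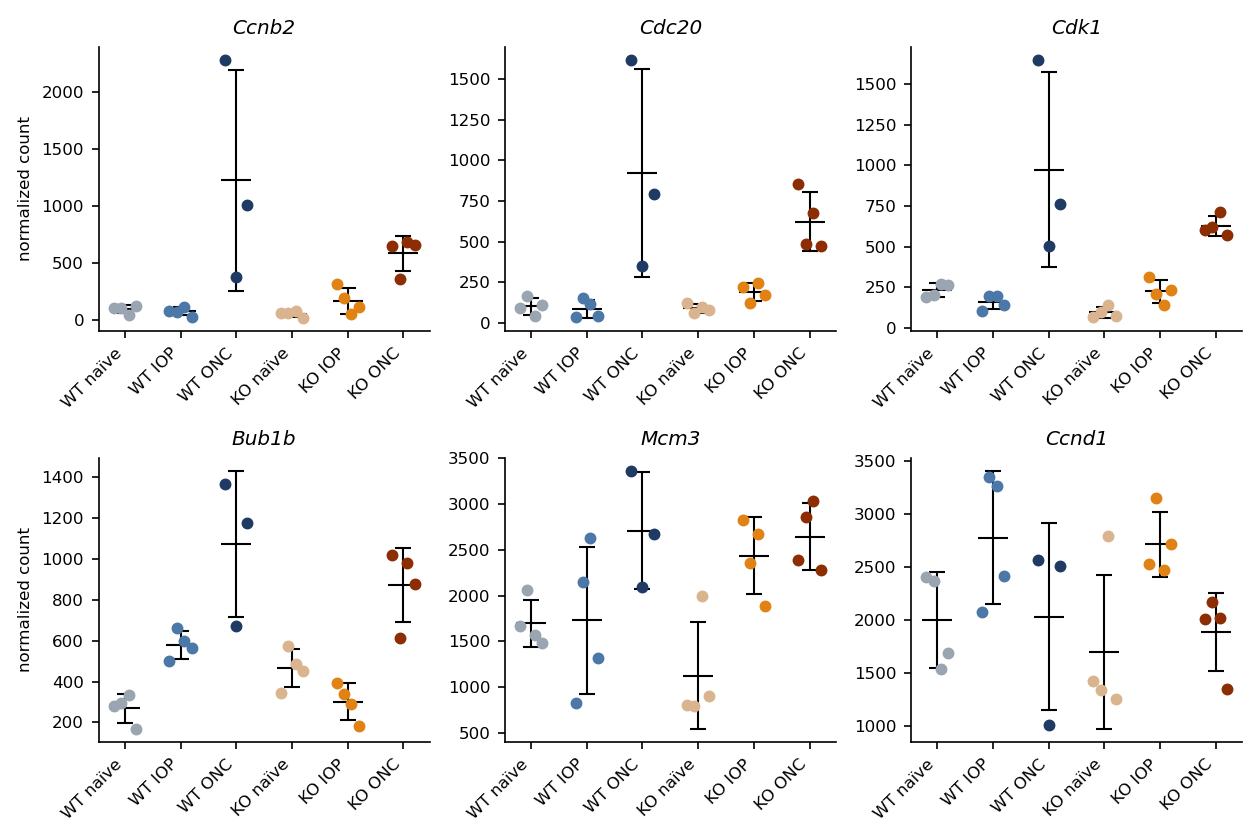
Normalized counts of Ccnb2, Cdc20, Cdk1, Bub1b, Mcm3 and Ccnd1 in every library by group, with the group mean and SD in black (n = 4 libraries, 3 for WT ONC; the vertical axes differ and do not all start at 0). Ccnb2, Cdc20 and Cdk1 are highest in the ONC groups, Bub1b is higher in WT IOP than in WT naïve, and Ccnd1 shows no separate ONC group.

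The 48 genes did not vary as a single block over the 23 libraries. The correlation of each gene with the mean log2 value of the other 47 had a median Pearson r of 0.74 and ran from -0.002 for Ccnd1 to 0.96 for Plk1. It is a description over libraries that share groups and depth. The mitosis genes had a median of 0.81 and the S phase genes one of 0.70. The 10 genes outside the list most like its mean over the 23 libraries were Cenpa (r = 0.955), Tacc3, Anapc5, Cdca8, Gsap, Eif4e2, Rtf2, Renbp, Echs1 and Klrb1a (r = 0.911). Cenpa encodes the histone H3 variant of centromeres, and Tacc3 and Cdca8 proteins of the spindle and of the chromosomal passenger complex.

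Other genes of the pathway were counted in the same comparisons, in which 7.55% of all genes rose in WT and 12.7% in KO. Of 50 further mitosis genes, 18 rose and 0 fell in WT ONC against naïve (median log2 fold change 1.33), and 30 rose and 2 fell in KO (1.75). With KO naïve replicates 1, 2 and 4 left out, the median in KO was 1.16. With the rod covariate 5 rose and 1 fell in KO (1.18), beside 350 of all 17102 genes that rose. Cenpa was at 129 to 192 in WT naïve, 419 to 2142 in WT ONC, 79.6 to 265 in KO naïve and 645 to 877 in KO ONC (WT: 2.60 ± 0.47 (SE), adjusted p = 0.000531 by limma). Pbk, a mitotic kinase, rose in WT by 3.28 ± 0.73 (SE), adjusted p = 0.00349. Of 38 further replication genes, 3 rose and 0 fell in WT (0.27), and 6 rose and 0 fell in KO (0.16). These shares, 7.89% and 15.8%, are near those of all genes. The genes called in both genotypes included Uhrf1, which keeps DNA methylation through replication, Dbf4, the activator of the origin-firing kinase Cdc7, and Asf1b, a histone chaperone.

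Of 24 further G1 cyclins, CDKs, E2F factors and CDC25 phosphatases, 2 rose and 1 fell in WT ONC against naïve, and 3 rose and 2 fell in KO, so that 8.33% and 12.5% rose, near the shares of all genes. Ccnd2, cyclin D2, fell in KO (-1.39 ± 0.45 (SE), adjusted p = 0.0267), and did not pass without KO naïve replicates 1, 2 and 4 (-1.26, adjusted p = 0.534) or with the rod covariate (-1.30, adjusted p = 0.312). Of 13 inhibitors of the cycle that were tested, 4 rose and 0 fell in WT, and 2 rose and 0 fell in KO. Cdkn1a, which encodes the CDK inhibitor p21, rose in both. It was at 303 to 359 in WT naïve and 888 to 1949 in WT ONC (2.17 ± 0.30 (SE), adjusted p = 3.92e-05), and at 302 to 386 and 1082 to 1663 in the KO groups (1.84 ± 0.28 (SE), adjusted p = 8.65e-05). Without KO naïve replicates 1, 2 and 4 the KO value was 1.69 and did not pass (adjusted p = 0.119 by limma), and with the rod covariate it was 1.25 and passed (adjusted p = 0.0284). Cdkn2c, the inhibitor p18, rose in WT after IOP elevation (1.61 ± 0.39 (SE), adjusted p = 0.0359) and after ONC (1.74 ± 0.42 (SE), adjusted p = 0.00631), comparisons that share the WT naïve libraries.

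Of 16 microglial mitogens and receptors tested, 4 rose and 1 fell in WT ONC, and 11 rose and 1 fell in KO ONC, each against naïve, beside 7.55% and 12.7% of all genes that rose. Csf1, a growth factor for microglia, was at 125 to 327 in WT naïve and 1643 to 4024 in WT ONC (3.55 ± 0.49 (SE), adjusted p = 4.02e-05). In KO it was at 75.6 to 450.4 and then 3271 to 3639 (4.08 ± 0.45 (SE), adjusted p = 4.55e-06). Il34, the other ligand of the same receptor, which neurons make, fell in WT, from 168 to 231 to 0 to 67.9 (-4.05 ± 0.94 (SE), adjusted p = 0.00497). Retinal ganglion cell marker sums were also lower in the same ONC libraries (558 to 2520 against 8793 to 13456), and their part was not tested. In KO IOP against KO naïve 8 of the 16 rose, against 5.06% of all genes. With KO naïve replicates 1, 2 and 4 left out, the median log2 fold change of the 16 was 0.62 after ONC and 0.12 after IOP elevation. With the rod covariate 1 of the 16 rose after ONC and 0 after IOP elevation, beside 350 and 2 of all 17102 genes. Csf1 itself passed in KO ONC without those libraries (2.94, adjusted p = 0.0147 by limma) and with the rod covariate (3.45, adjusted p = 0.00152).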

How the data were processed

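Retinal GFP+ microglia were sorted as live single cells, RNA was extracted and amplified, and paired-end reads of 150 bp were sequenced. The authors' deposited table holds 1 column per library of normalized counts (a signal that is never negative), reads per gene divided by a DESeq2 size factor. The submitters' processing notes name STAR, DESeq2 and GRCm38, whereas the methods name salmon, so the counting tool is uncertain. Every value was a whole multiple of the step of its library (tolerance 0.01), so whole reads were recovered for 23 libraries. In KO IOP replicates 2 and 4 that step lies close to 1, so edgeR was also run without them.

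Group means were fitted to log2(normalized count + 1) for all 17102 genes that passed the filter with limma 3.58.1 (trended variance) in R 4.3.3, with Benjamini-Hochberg adjustment over all genes and an absolute log2 fold change over 0.58. Alternatives were other pseudocounts (0.5 and 5), no filter, upper-quartile and quantile scaling, a replicate block, a rod covariate, the compared groups alone, edgeR 4.0.16 and DESeq2 1.42.0 on the recovered reads, and each library left out. A microglia covariate, KO naïve replicates 1, 2 and 4 left out together, and edgeR without KO IOP replicates 2 and 4 were chosen after seeing the data, as were sums of the members per 1000 counts of the microglia list. The fits were tested on simulated data. The 48 genes and all lists were chosen with earlier results of these data known. Genes named are the 48 members, called pathway genes (at most 6 per list and comparison by size of change), the 10 genes most correlated with the mean of the members, and marker lists. Positions and gene symbols came from GENCODE on GRCm38, and promoters from RefSeq on GRCm38.p6. The depth was 22180480 to 30296094 reads on genes per library, and intervals cover the spread between libraries.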

Additional observations from a re-analysis of the deposited data

Results flagged for a closer look

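Within groups of 4 libraries, 13 of 245 tests (5.31%) found a value far from the others of its group, and chance gives about 1 in 20. In KO naïve replicate 3, the KO naïve library richest in microglial transcript, the mean log2 value of the 48 genes was 7.38 against 6.91 to 6.95 in the other three, Mcm3 was at 1997 against 794 to 907, Ccnd1 at 2786 against 1254 to 1426, E2f1 at 53.3 against 59.5 to 60.4 and Stmn1 at 4257 against 4621 to 4691. In KO naïve replicate 4, Nusap1 was at 89.2 against 46.5 to 53.3. In WT IOP replicate 2, Tyms was at 669 against 512 to 526 and Cenpf at 258 against 53.1 to 71.7, and in WT IOP replicate 3 Ube2c was at 124 against 59.4 to 66.9. In KO IOP replicate 1 Cenpf was at 209.7 against 69.3 to 90.7, and in KO IOP replicate 4 Ccne2 was at 192 against 153 to 157. In KO ONC replicate 1 Ccne1 was at 116 against 24.6 to 31.5, and in KO ONC replicate 2 Ccnb2 was at 360.0 against 646 to 683.

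The effect of IOP elevation differed between the genotypes for Cdk1 (interaction 1.80 on the log2 scale) and for Bub1b (interaction -1.80) by the limma interaction term. These 2 of the 48 are a smaller share than the 8.75% of all genes that passed. The Cdk1 term did not pass with the rod covariate (adjusted p = 0.471) or the microglia covariate (adjusted p = 0.387) or in 8 of 16 fits without 1 library, and the Bub1b term did not pass with KO naïve replicates 1, 2 and 4 left out (adjusted p = 0.224).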

How the results depend on the processing

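Among the genes called, no log2 fold change turned its direction under any alternative fit. The difference in mean log2 value of the 48 genes moved by less than 1 SD between replicates (0.39) under every pseudocount, scaling and left-out library. Its sign was not stable for KO IOP against KO naïve (-0.048 to 0.53). The same held for KO against WT after IOP elevation (-0.11 to 0.35) and after ONC (-0.53 to 0.053). For WT ONC against WT naïve the count stayed within 1.5 times of 18 except without WT ONC replicate 1 (10), and ranged from 10 to 25 over the left-out libraries. Left-out libraries gave 0 in every case for WT IOP against WT naïve, 20 to 28 for KO ONC against KO naïve, 0 to 5 for KO IOP against KO naïve, 11 to 30 for WT ONC against WT IOP, 1 to 13 for KO ONC against KO IOP, 0 to 3 for KO against WT in naïve and 1 to 4 for the interaction of genotype and IOP. For KO against WT after IOP elevation, KO against WT after ONC and the interaction of genotype and ONC they gave 0 throughout by limma. For the comparisons listed before, from WT IOP against WT naïve onward, calls over all genes ranged as follows. They were 102 to 332, 2798 to 5098, 92 to 3182, 1259 to 5826, 127 to 429, 1 to 1623 and 573 to 3074, in the same order. With the rod covariate the counts were 2 for WT IOP against naïve, 1 for KO ONC against naïve and 0 for KO IOP against naïve. They were 6 for WT ONC against IOP and 1 for the interaction of genotype and IOP. Of all genes tested, 475, 521, 3, 446 and 122 were called in the same order. With the microglia covariate the counts were 2, 1, 0, 11 and 1, besides 1 for KO against WT after IOP elevation. Of all genes, 469, 396, 119, 1261 and 178 were called, besides 1117. With the compared groups alone the counts were 2 for WT IOP against naïve, 0 for KO IOP against naïve and 6 for WT ONC against IOP. Of all genes, 520, 5 and 479 were called in these fits. For KO ONC against naïve, calls over all genes tested fell from 4043 to 521 with the rod covariate and 396 with the microglia covariate. DESeq2 gave 2 for WT IOP against naïve, 1 each for KO against WT in naïve and IOP, and 4 for the interaction of genotype and IOP. Of all genes tested it called 580, 536, 940 and 2158 in the same order. Quantile scaling gave 0 for WT IOP against naïve and 1 for KO against WT in naïve, beside 308 and 392 of all genes. Upper-quartile scaling gave 1 for KO against WT after IOP elevation, beside 406 of all genes. Leaving out KO naïve replicates 1, 2 and 4 gave 0 for KO ONC against naïve, KO IOP against naïve and the interaction of genotype and IOP, with a single naïve library that is assumed to vary like the other groups. By edgeR without KO IOP replicates 2 and 4 the counts were 0 for KO IOP against naïve, 0 for KO ONC against KO IOP and 1 for the interaction of genotype and IOP. Of all genes, 17, 50 and 371 were called there. Per 1000 counts of the microglia list, a scale without a test, the summed S phase genes had a median of 24.3 in KO naïve and 15.6 in KO ONC, and the summed mitosis genes 20.6 and 14.5 with Stmn1 but 6.02 and 9.49 without it. The cause of these changes was not tested. Replicate numbers did not pair the libraries (same-number median r = 0.005, and 7 of 23 libraries correlated best with their own number). The replicate block gave 15, 25, 18 and 9 for ONC against naïve in WT and KO and ONC against IOP in WT and KO, and 3 for the interaction of genotype and IOP. Of all genes, 2592, 3986, 2953, 354 and 1547 were called with the block, in the same order. Genes at 0 in some libraries, such as Ttk and Ccne1, had among the widest intervals.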
